A study of Homo sapiens with 6 samples.

Results

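The V-ATPase is the proton pump that acidifies lysosomes, endosomes and the Golgi. Its V1 sector hydrolyses ATP on the cytosolic face, and its V0 sector, which sits in the membrane, carries the protons across. Within V0, a ring of proteolipid c subunits with 1 c″ subunit turns against the a subunit, the d subunit caps the ring on the cytosolic side, and the small e subunit spans the membrane. Several subunits exist as alternative forms made from separate genes, some of them known mainly from specialised cells such as osteoclasts and acid-secreting kidney cells.

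The 9 genes followed here are ATP6V0A1, ATP6V0A2 and ATP6V0A4 for the a subunit, ATP6V0C for c, ATP6V0B for c″, ATP6V0D1 and ATP6V0D2 for d, and ATP6V0E1 and ATP6V0E2 for e. They were found by symbol among the 48162 genes of the count table, and all 9 had a row. The set was chosen by the counts of ATP6V0E1, which were much lower after CNN3 silencing in the comparison of the 2 groups described here, so its values are given as a description, and the other 8 genes are its comparison. TCIRG1, which encodes a further a subunit, is treated with the partners of V0.

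RNA sequencing was performed on SiHa, an HPV-positive human cervical carcinoma line. The 3 si-CNN3 samples carried si-CNN3#1, an siRNA against CNN3 (calponin 3, an actin-binding protein), and the 3 si-NC samples carried a control siRNA. Both groups were thus transfected cells of 1 line, were given fresh medium after transfection, and were harvested at 48 h. The study describes the 3 samples of a group as independent assays, and CNN3 was silenced with 1 siRNA, so effects of CNN3 loss and of this siRNA cannot be told apart. Total counts ran from 18147028 to 19026341 with si-CNN3 and from 20287139 to 24976517 with si-NC. In bulk RNA, fewer cells with a transcript and less of it per cell cannot be told apart.

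CNN3 itself had 490, 514 and 574 counts with si-CNN3 against 1134, 1288 and 1234 with si-NC, or 50.9% of its control level. Among the epithelial markers KRT8, KRT7 and KRT18 were high. CDH1 was at 37.9 CPM (counts scaled to library size) with si-CNN3 and 36.6 CPM with si-NC. In the same order, KRT5 was at 0.339 and 0.406 CPM, KRT19 at 4.88 and 5.04 CPM and EPCAM at 6.65 and 6.25 CPM. All 7 reached 10 counts in a sample, as did some markers of other cells. The summed level of the 7 was 1211 to 1246 CPM with si-CNN3 and 1275 to 1329 CPM with si-NC. Of the 6 that were tested, 3 had a log2 fold change above 0 and 3 below, and KRT8 and KRT18 were the 2 that passed the threshold, both lower. KRT7 was at 521 ± 6.28 CPM with si-CNN3 and 498 ± 6.84 CPM with si-NC (n = 3), without overlap, and did not pass (adjusted p = 0.0832, edgeR). CDKN2A, high in HPV-positive cervical carcinoma, lay at 266 to 284 CPM and 265 to 275 CPM. Markers of other cells summed to far less. Even so, the fibroblast and osteoclast sums lay above KRT5, KRT19 and EPCAM, each taken alone by group mean. Leukocyte markers summed to at most 0.897 CPM and fibroblast markers to at most 8.42 CPM in any sample. Of the endothelial markers, VWF was at most at 0.329 CPM and PECAM1 was not analysed here. Osteoclast markers summed to 8.16 to 8.54 CPM against 8.60 to 9.41 CPM, with OCSTAMP at 0 throughout, and those of intercalated cells to 3.80 to 4.56 CPM against 2.92 to 3.44 CPM, with FOXI1 higher. The part of these marker differences in the results was not tested.

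ATP6V0E1 is a gene of chromosome 5 (chr5:172983757-173035445, plus strand, GRCh38, GENCODE 29) whose main product is a small hydrophobic protein of the V0 sector. Its counts were 1415, 1395 and 1394 after si-CNN3 and 2425, 2793 and 2462 after si-NC. Scaled for library size by edgeR's TMM factors, these were 75.1, 72.6 and 76.4 CPM against 121, 112 and 114 CPM. The groups were far apart and tight within themselves: 74.7 ± 1.88 CPM with si-CNN3 and 116 ± 4.55 CPM with si-NC (mean ± SD, n = 3), which left 64.5% of the level in the controls. On the log2 scale the change was -0.63 (SE 0.036, 95% interval -0.70 to -0.56). Of the 15860 genes tested, 102 had a log2 fold change at or below this value, ATP6V0E1 included, and of the 9795 genes with a mean of at least 10 CPM, 8 did. No exon base of ATP6V0E1 was shared with another annotated gene, and its 4 annotated pseudogenes held 0 to 3 counts in all per sample.

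**Figure D1:**
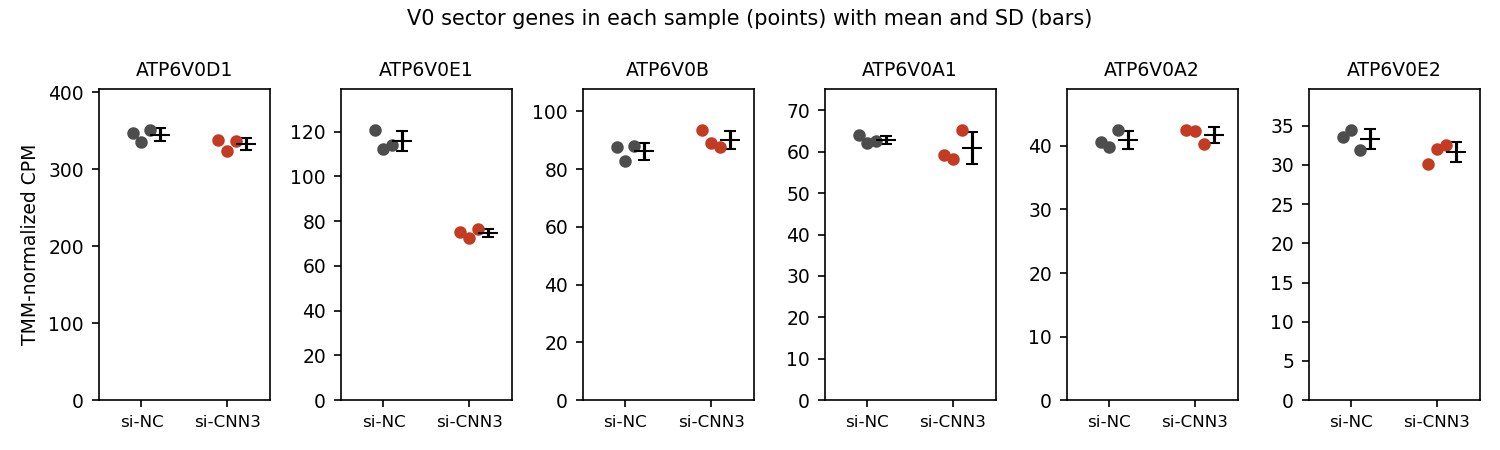
TMM-normalized CPM (linear axes from 0, a scale of its own per gene) of the 6 V0 genes with over 100 counts in every sample. Each point is a sample, grey for si-NC and red for si-CNN3, with the group's mean and SD beside it. The ATP6V0E1 points lie at 72.6 to 76.4 with si-CNN3 and 112 to 121 with si-NC, while the points of the other 5 genes overlap between groups.

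The siRNA sequences are shown with the stretches of CNN3 and ATP6V0E1 that share the most bases with them. The sense strands are those of the sample labels without their overhang, and the guide is the reverse complement, with its seed (bases 2 to 8) in capitals. In the sense strands the capitals mark the word that pairs with that seed. The transcript stretches are GENCODE 29 sequence on GRCh38, with the bases shared with the siRNA in capitals.
si-CNN3#1 sense: gcagaugggaaCCAACAAa
si-CNN3#1 guide: uUUGUUGGuucccaucugc
si-NC sense: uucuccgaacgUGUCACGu
CNN3 target, coding sequence: ggtctGCAGATGGGAACCAACAAAtgtgc
ATP6V0E1 and si-CNN3#1: gagatGGAACCAtcaca
ATP6V0E1 and si-NC: tctctTGTCACGagaag

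CNN3 held all 19 bases of si-CNN3#1. The longest stretch that any of the 4 coding transcripts of ATP6V0E1 shared with si-CNN3#1 was 7 bases, at chr5:173035280-173035286 in the 3′ UTR of its longest coding transcript, and 90.5% of tested genes held a stretch at least as long. The seed word CCAACAA of si-CNN3#1 was not found in the 3′ UTR of ATP6V0E1, whereas 10.4% of the 12693 tested genes with an annotated 3′ UTR held it. The word TGTCACG of si-NC was likewise not in its 3′ UTR (3.47% of genes held it), although it occurred once in the coding sequence of another transcript, across an exon junction. Among the other V0 genes, ATP6V0A2 held both words in a 3′ UTR, CCAACAA in 2 of its 3 coding transcripts and TGTCACG in 1 of 3. The remaining 7 held neither word in a 3′ UTR. Outside the 3′ UTR, CCAACAA occurred in 6 of the 7 coding transcripts of ATP6V0A1. The longest stretch that ATP6V0A1 shared with si-CNN3#1 was 9 bases, in the coding sequence, and 18.8% of tested genes held one at least as long. ATP6V0A2 also shared 9 bases with si-CNN3#1, in a 3′ UTR. With si-NC, ATP6V0A2 shared 9 bases in the coding sequence, and 3.34% of tested genes held one at least as long. A match of letters is not a site of action, and none was tested for one.

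ATP6V0E2, on chromosome 7 (chr7:149872968-149891204, plus strand), encodes the other form of the e subunit. Its counts were 569, 616 and 595 with si-CNN3 and 673, 859 and 689 with si-NC. These corresponded to 30.2, 32.1 and 32.6 CPM against 33.5, 34.5 and 31.9 CPM, and the groups overlapped. The log2 fold change was -0.078 (SE 0.054, 95% interval -0.19 to 0.031, adjusted p = 0.403, edgeR quasi-likelihood test with Benjamini-Hochberg adjustment). The upper end of that interval corresponds to no more than a slight increase, so a rise of ATP6V0E2 of the size of the fall of ATP6V0E1 lay outside it. An antisense gene, ATP6V0E2-AS1, covered 864 of its 6751 exon bases and had 61 to 79 counts per sample. Whether strand was used in counting is not given in the sources used here, so reads in those bases cannot be assigned to either gene.

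The e genes could be compared with each other in FPKM, which divides by a gene length, here 857 bases for ATP6V0E1 and 1392 for ATP6V0E2. ATP6V0E1 made up 85.4%, 84.1% and 85.3% of their summed FPKM in the si-NC samples and 80.2%, 78.6% and 79.2% in the si-CNN3 samples. The groups did not overlap, at 84.9 ± 0.738% and 79.3 ± 0.774% (mean ± SD, n = 3). ATP6V0E1 thus remained the main e transcript after silencing. Its level was 5.65 ± 0.317 times that of ATP6V0E2 with si-NC and 3.84 ± 0.183 times with si-CNN3. These shares and ratios contain the value that chose the set and are given without a test.

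The proton path runs between the a subunit and the ring, and the a subunit also decides in which membrane the pump sits. ATP6V0A1 (chr17:42458844-42522611, plus strand) had 1117, 1119 and 1193 counts after si-CNN3 and 1283, 1544 and 1351 after si-NC. In CPM it had 59.2, 58.3 and 65.3 against 64.0, 62.0 and 62.6. The third si-CNN3 sample was the highest of all 6 and the other si-CNN3 samples were the lowest, so the groups overlapped. Its log2 fold change was -0.045 (95% interval -0.13 to 0.041, adjusted p = 0.574, edgeR).

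ATP6V0A2, the a form known from the Golgi and endosomes (chr12:123712318-123761755, plus strand), had 800, 814 and 736 counts after si-CNN3 and 814, 991 and 918 after si-NC. It stood at 42.4, 42.4 and 40.3 CPM against 40.6, 39.8 and 42.6 CPM, again with overlap. The log2 fold change was 0.027 (95% interval -0.072 to 0.13, adjusted p = 0.800, edgeR). ATP6V0A4 (chr7:138706294-138799560, minus strand), the a form of acid-secreting kidney cells, was at 0 in 4 samples, with 2 counts in 1 si-CNN3 sample and 1 count in 1 si-NC sample, and was too low to be tested.

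TCIRG1, known as the a form of the osteoclast pump, was the most abundant a gene per length. It had 1260, 1362 and 1275 counts after si-CNN3 and 1488, 1864 and 1565 after si-NC. At 69.2 ± 2.12 CPM against 73.9 ± 1.20 CPM (n = 3) its groups did not overlap, but its log2 fold change of -0.095 did not pass the threshold (95% interval -0.17 to -0.017, adjusted p = 0.1004, edgeR). An annotated gene on the same strand, AP002807.1, shared 155 of its 4384 exon bases. The deposited FPKM imply lengths of 1056 bases for TCIRG1, 1649 for ATP6V0A1 and 2367 for ATP6V0A2. Their longest annotated coding sequences have 2493, 2517 and 2571 bases, so shares in FPKM depend on these shorter lengths. In CPM with si-NC, ATP6V0A1 was at 62.9 and ATP6V0A2 at 41.0, closer to TCIRG1 than in FPKM. With si-NC, TCIRG1 made up 55.8 ± 0.731% of the summed FPKM of the a genes, ATP6V0A1 30.4 ± 0.373% and ATP6V0A2 13.8 ± 0.539%. With si-CNN3 the shares were 54.5 ± 1.05%, 30.8 ± 1.47% and 14.7 ± 0.734% (n = 3 each).

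With 3 samples against 3, an exact two-sided permutation test cannot go below p = 0.1, so no difference in the 4 a shares could pass a threshold of 0.05. The tests gave exact permutation values of p = 0.3 for TCIRG1, 0.8 for ATP6V0A1, 0.2 for ATP6V0A2 and 1 for ATP6V0A4, which adjusted over the 4 shares became 0.6, 1, 0.6 and 1. For ATP6V0A1 the small difference of 0.355 percentage points depended on 1 library and was -0.402 without si-CNN3 replicate 3.

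**Figure D2:**
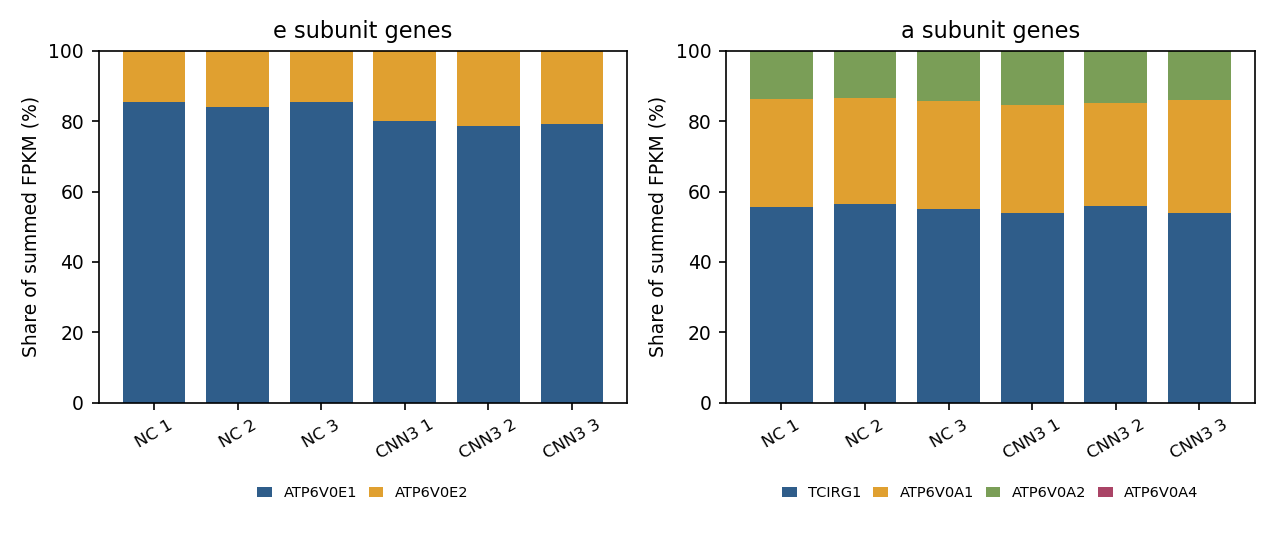
Share of summed FPKM (%, axis from 0) held by each gene of the e subunit (left) and of the a subunit (right) in each of the 6 samples. ATP6V0E1 holds 84.1% to 85.4% in the si-NC samples and 78.6% to 80.2% in the si-CNN3 samples, while the shares of the a genes vary within a few points and ATP6V0A4 is too low to be seen.

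The d subunit links the ring to the central stalk of V1. ATP6V0D1 (chr16:67438014-67481237, minus strand) had 6364, 6212 and 6146 counts after si-CNN3 and 6974, 8356 and 7583 after si-NC. At 338, 324 and 337 CPM against 348, 336 and 352 CPM the groups overlapped narrowly, and the log2 fold change was -0.052 (SE 0.027, 95% interval -0.11 to 0.0013, adjusted p = 0.213, edgeR). This was the most deeply counted V0 gene, and its interval was the narrowest of the 7 tested. ATP6V0D2, the d form known from osteoclasts, had 1 count in 1 si-CNN3 sample and 0 in the other 5 samples.

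ATP6V0B (chr1:43974487-43978295, plus strand), which encodes the c″ proteolipid, had 1767, 1710 and 1599 counts after si-CNN3 and 1758, 2060 and 1901 after si-NC. Its CPM values were 93.7, 89.0 and 87.6 against 87.6, 82.8 and 88.1, with overlap between the groups. The log2 fold change was 0.066 (SE 0.037, 95% interval -0.0075 to 0.14, adjusted p = 0.262, edgeR).

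ATP6V0C, which encodes the c proteolipid of the ring, had very few counts for a subunit that every pump needs. It had 4, 9 and 13 counts after si-CNN3 and 16, 10 and 16 after si-NC, and the groups overlapped. Its log2 fold change of -0.45 had a 95% interval from -1.26 to 0.36 (adjusted p = 0.540, edgeR), so at this depth no change of moderate size could be detected. The gene (chr16:2513870-2520218, plus strand) shared 1080 of its 1498 exon bases with other coding genes on the same strand. One of these, AC093525.2, covered 862 of them and had 0 counts in every sample, as had AC093525.1 with 218. Its 3 annotated pseudogenes held 4 to 10 counts in all per sample. The rule for reads that match several genes is not given in the sources used here, so the level of ATP6V0C cannot be read from these counts.

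Of the 9 V0 genes, 7 had enough counts to be tested. ATP6V0E1, by which the set was chosen, was past the threshold and is left out of the comparison that follows. None of the other 6 tested genes passed, where 13.3% of all tested genes passed in either direction and 7.14% were lower. Their median log2 fold change was -0.049 against 0.0023 over all tested genes. The same 0 of 6 was found at an unadjusted p of 0.05 with edgeR, where 3978 of 15860 tested genes lay under that cut. None passed with DESeq2, which gave no adjusted p for ATP6V0C. In none of these 6 did the CPM values of the groups stand apart, as they did in 28.2% of all tested genes.

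**Figure D3:**
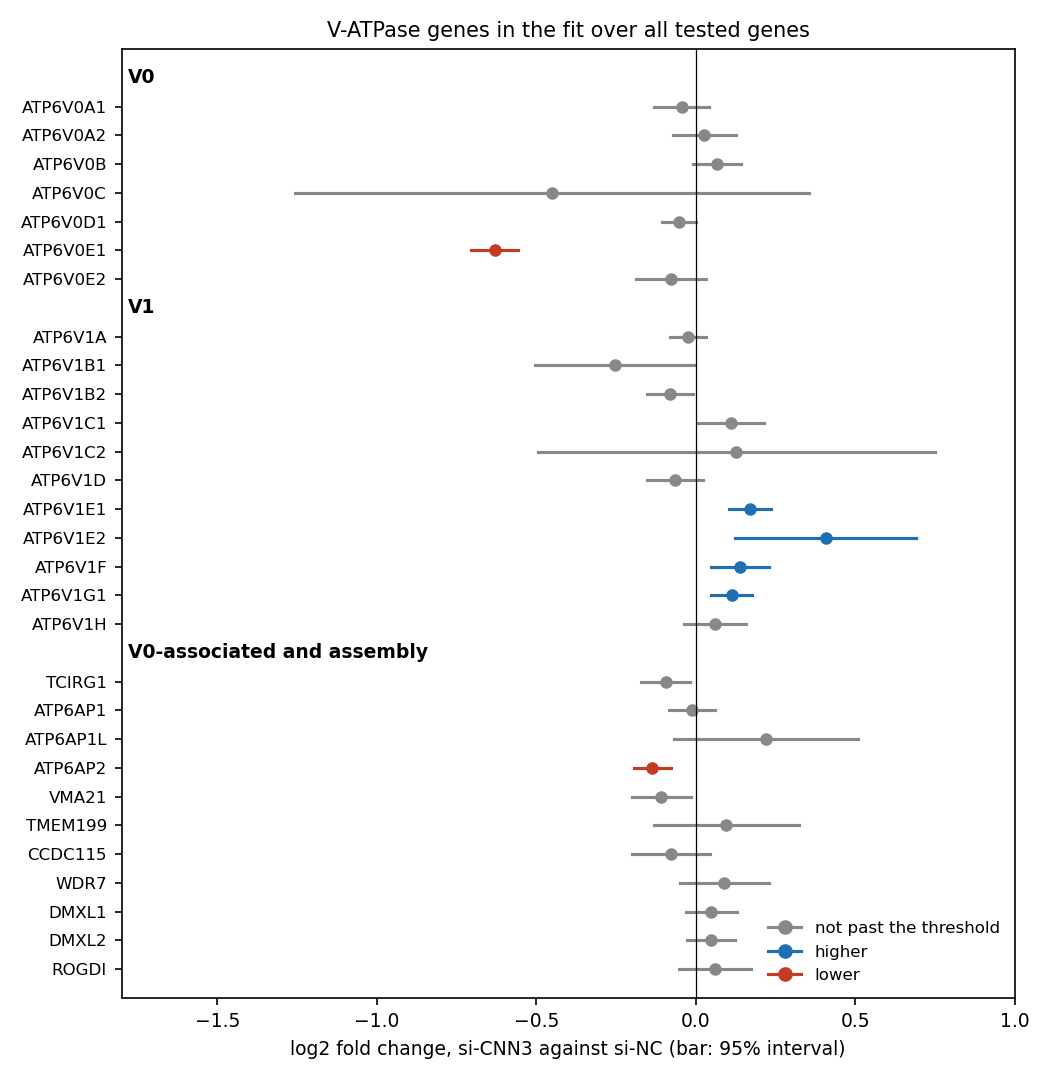
Log2 fold change of si-CNN3 against si-NC (x axis) with its 95% interval for the tested genes of V0, V1 and the V0-associated and assembly list, from 1 edgeR fit over all genes. ATP6V0E1 lies at -0.63, while the intervals of the other 6 V0 genes include 0. Blue marks genes past the threshold and higher, red those lower.

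Per length, by the lengths that the deposited FPKM imply, the V0 transcripts were present in very unequal amounts. With si-NC, ATP6V0D1 led with 283 ± 5.98 FPKM, followed by ATP6V0E1 with 134 ± 4.79, ATP6V0B with 84.6 ± 2.64, TCIRG1 with 69.4 ± 1.25, ATP6V0A1 with 37.8 ± 0.453, ATP6V0E2 with 23.8 ± 0.972 and ATP6V0A2 with 17.2 ± 0.575 (mean ± SD, n = 3). Every neighbour in this order was separated, with all 3 values of one gene above all 3 of the next. ATP6V0C was listed at 0.755 ± 0.248 FPKM, with the limit given above, and ATP6V0A4 and ATP6V0D2 were at or close to 0.

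With si-CNN3 the order changed at 1 place. ATP6V0E1 had 87.4, 85.6 and 89.6 FPKM and ATP6V0B had 92.6, 88.9 and 87.2 FPKM, so these genes overlapped and could no longer be ranked. ATP6V0D1 was at 277 ± 5.47 FPKM, TCIRG1 at 65.8 ± 2.38, ATP6V0A1 at 37.1 ± 2.37, ATP6V0E2 at 22.8 ± 1.03 and ATP6V0A2 at 17.7 ± 0.4995. Relative to its partners, ATP6V0E1 went from 1.59 ± 0.0513 to 0.979 ± 0.0442 times the level of ATP6V0B. Against ATP6V0D1 it went from 0.473 ± 0.0163 to 0.317 ± 0.00315 times, and against ATP6V0A1 from 3.54 ± 0.0837 to 2.36 ± 0.0999 times.

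**Figure D4:**
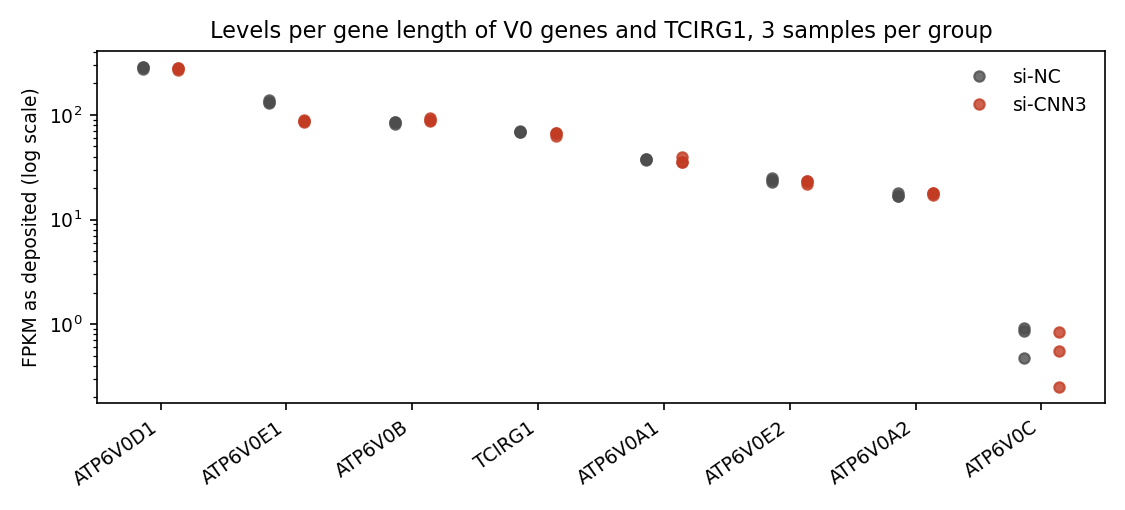
Deposited FPKM (log axis) of 7 V0 genes and TCIRG1 in the 3 samples of each group, grey for si-NC and red for si-CNN3, ordered by the si-NC mean. ATP6V0E1 lies above ATP6V0B with si-NC and among its values with si-CNN3. ATP6V0C is under 1 FPKM in every sample.

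The V1 sector was compared because V0 works only when joined to it. Of 13 listed V1 genes 11 were tested. Of these, 4 were higher, where 6.17% of all tested genes were, and none was lower. The median log2 fold change of the 11 was 0.11. The 3 largest changes past the threshold were those of ATP6V1E2, ATP6V1E1 and ATP6V1F. ATP6V1E1 encodes the widely expressed E subunit of the outer stalk and rose from 112 ± 3.56 to 126 ± 1.35 CPM (n = 3), a log2 fold change of 0.17 (SE 0.033, adjusted p = 0.00012, edgeR). This call passed under all 12 alternative settings.

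The other V1 calls were less firm. ATP6V1E2, a second E gene, had 122, 131 and 75 counts after si-CNN3 and 77, 108 and 107 after si-NC. Its groups overlapped, and its log2 fold change of 0.41 (SE 0.14, adjusted p = 0.045, edgeR) was 0.27 (adjusted p = 0.310) without si-CNN3 replicate 2. It also missed the threshold without si-CNN3 replicate 1, si-NC replicate 1 or si-NC replicate 2 and with DESeq2 (adjusted p = 0.276). ATP6V1F, a subunit of the central stalk, rose from 51.8 ± 0.579 to 57.0 ± 3.57 CPM (n = 3, log2 fold change 0.14, SE 0.045, adjusted p = 0.0313, edgeR). Without si-CNN3 replicate 1 its log2 fold change was 0.085 (adjusted p = 0.305), and it missed the threshold without any 1 of the 3 si-NC samples, with no filter on low counts (adjusted p = 0.0530) and with DESeq2 (adjusted p = 0.172). ATP6V1G1, an outer stalk subunit chosen after its values were seen because it completes the 4, rose from 130 ± 4.80 to 140 ± 1.82 CPM (n = 3, log2 fold change 0.11, SE 0.032, adjusted p = 0.0105, edgeR). It missed the threshold without si-NC replicate 2 (0.085, adjusted p = 0.135) and with DESeq2 (adjusted p = 0.0599). The count of higher V1 genes was 2 without si-CNN3 replicate 1 or si-NC replicate 1, 1 without si-NC replicate 2, and 1 with DESeq2. At an unadjusted p of 0.05, 5 V1 genes were higher and 2 lower with edgeR, and 3 were higher and 0 lower with DESeq2. With edgeR, 3978 of 15860 tested genes lay under that cut in either direction.

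Among 12 V0-associated and assembly genes, which include TCIRG1 and the factors that build V0 or join it to V1, 11 were tested and 1 passed and was lower, ATP6AP2, where 7.14% of all tested genes were lower. It encodes an accessory protein bound to V0, also known as the prorenin receptor. It had 3766, 3879 and 3695 counts after si-CNN3 and 4299, 5567 and 4865 after si-NC, or 200, 202 and 202 CPM against 214, 224 and 226 CPM. The groups did not overlap, and the log2 fold change was -0.14 (SE 0.028, adjusted p = 0.000374, edgeR). The call passed under all 12 alternatives. RNASEK, a small V0-associated protein, had too few counts to be tested, and 661 of its 1789 exon bases were shared with coding genes on the same strand.

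The TLDc proteins bind the V-ATPase. Of their 4 tested genes, 0 passed with edgeR, where 13.3% of all tested genes passed, and 0 with DESeq2. At an unadjusted p of 0.05, 2 passed with edgeR, both higher, and 1 with DESeq2. With edgeR, 3978 of 15860 tested genes lay under that cut. Ragulator and the Rag GTPases contact the pump on the lysosomal surface in nutrient sensing. Of these 10 genes 2 passed, 1 in each direction, beside 6.17% of all tested genes higher and 7.14% lower. LAMTOR4 was higher, from 70.3 ± 2.49 to 77.5 ± 0.867 CPM (n = 3, log2 fold change 0.14, SE 0.038, adjusted p = 0.0087, edgeR), and LAMTOR3 was lower, from 26.4 ± 0.901 to 23.2 ± 0.728 CPM (n = 3, log2 fold change -0.19, SE 0.060, adjusted p = 0.0273, edgeR). LAMTOR4 missed the threshold without si-NC replicate 1 (adjusted p = 0.0538, edgeR) or 3 (adjusted p = 0.0640) and with DESeq2 (adjusted p = 0.0685). LAMTOR3 missed it without si-CNN3 replicate 1 (adjusted p = 0.0627, edgeR) or 3 (0.118) and without si-NC replicate 2 (0.0842) or 3 (0.107). It also missed it with DESeq2 (adjusted p = 0.184) and with total counts only (adjusted p = 0.0506).

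The MiT factors, which include TFEB, drive many lysosomal and V-ATPase genes. Of 3 tested, 1 passed and was lower, beside 7.14% of all tested genes. This was TFE3, which went from 145 ± 3.86 to 135 ± 0.652 CPM (n = 3, log2 fold change -0.11, SE 0.031, adjusted p = 0.0138, edgeR), a call that was lost without si-NC replicate 3 (adjusted p = 0.109) and with DESeq2 (adjusted p = 0.0586). The word CACGTG, an E-box form that these factors are known to bind, was searched in RefSeq promoter windows of 300 bases (GRCh38.p14), where 8.78% of 27305 genes held it. It reads the same on both strands. Of the 7 V0 genes with a window, 3 held it. The sites are shown with the word in capitals, to set beside the transcript levels.
ATP6V0B, chr1:43974891-43974920, plus strand: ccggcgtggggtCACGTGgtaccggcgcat
ATP6V0B, chr1:43974909-43974938, plus strand: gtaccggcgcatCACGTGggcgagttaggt
ATP6V0D1, chr16:67481199-67481228, minus strand: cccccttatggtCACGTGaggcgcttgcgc
ATP6V0E2, chr7:149872884-149872913, plus strand: tcccttctgcatCACGTGgggactgcgcct

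The V0 genes with the word, ATP6V0B, ATP6V0D1 and ATP6V0E2, had log2 fold changes of 0.066, -0.052 and -0.078, none of them past the threshold. ATP6V0A1, ATP6V0A2, ATP6V0A4 and ATP6V0C did not have it in their windows. ATP6V0E1 and ATP6V0D2 had no window. In the other lists, ATP6V1G1, LAMTOR1, LAMTOR4, RRAGB and RRAGC held the word. Of these, ATP6V1G1 and LAMTOR4 were past the threshold and higher, as given above, and LAMTOR1, RRAGB and RRAGC did not pass. Whether the word bears on any of these levels was not tested.

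To place ATP6V0E1 among all genes, its log2 CPM over the 6 samples, centred on its mean, was compared with those of 9794 genes with a mean of at least 10 CPM. The 5 nearest were RPLP1, XPR1, NPTXR, B3GNT2 and FAM57A. RPLP1, a protein of the ribosomal stalk, had a root mean square difference of 0.0308 on the log2 scale, against 0.321 for the median gene, and went from 1508 ± 31.8 to 945 ± 11.1 CPM (n = 3). The others were at 0.0687 (XPR1, a phosphate exporter), 0.0784 (NPTXR, the neuronal pentraxin receptor), 0.0796 (B3GNT2, a glycosyltransferase) and 0.0809 (FAM57A). All 5 were lower with si-CNN3, by a log2 fold change between -0.67 and -0.50, which follows from how they were found.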

How the data were processed

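Libraries were made from total RNA with the TruSeq RNA Sample Prep Kit. The submitters' processing notes name TopHat2 2.0.9, Bowtie2 2.0.6, HTSeq and DESeq 1.10.1. The authors deposited, for each Ensembl gene, unnormalized counts in the 6 samples together with FPKM values. Counts divided by total and a whole-number gene length gave the deposited FPKM (within 0.01 bases for 100% of values). The genome build, strand setting and rule for reads in several genes are not given in the sources used here. All 6 sample columns of each table were used, with 0 left unmapped.

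Symbols and positions were taken from GENCODE 29 on GRCh38, which named 45342 of 48162 rows. The main fit used edgeR 4.0.16 in R 4.3.3 on counts (TMM, filterByExpr with a minimum count of 10, quasi-likelihood test, group as the only term). Benjamini-Hochberg adjustment ran over 15860 tested genes, with a threshold of 0.05. Standard errors and 95% intervals are for log2 fold changes. It was tested on simulated counts. Alternatives were DESeq2 1.42.0, other scalings and filters, a replicate block and leaving out each sample. CPM and their fold changes rest on counts, and their precision is limited by the 18147028 to 24976517 counts per sample. Between replicates, counts varied more than sampling noise (chi-square per degree of freedom 1.56 to 1.98), so no sample was a copy of another. This does not show that the samples came from independent cultures. The common coefficient of variation between replicates, beyond counting noise, was 0.0232 in the main fit. The tests treat the 3 samples of a group as independent, as the study describes them.

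The members and lists were chosen with earlier results of these data known. Named are the 9 members, list genes past the threshold (the 3 largest changes where more passed), CNN3 and the 5 genes nearest in pattern to ATP6V0E1. Also named are ATP6V1G1, ATP6V1B1 for its overlap, list genes with CACGTG in a window, and markers and overlapping genes where they bear on a result.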

Additional observations from a re-analysis of the deposited data

How the results depend on the processing

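Over the 12 alternative settings the log2 fold change of ATP6V0E1 ranged from -0.65 to -0.60, and none of the other 6 tested V0 genes passed the threshold under any setting that gave it a value. DESeq2, run on 30502 genes without the filter that left 15860 for edgeR, called 1073 genes in place of 2111. It called 1 V1 gene in place of 4, and 0 Ragulator and Rag genes and 0 MiT genes. Without scaling factors (total counts only), 1 TLDc gene and 1 Ragulator or Rag gene passed, and the share of called genes that were higher was 60.0% in place of 46.3%. Leaving out 1 sample at a time gave 1 to 4 V1 genes, 0 to 2 Ragulator and Rag genes, 0 to 1 MiT genes and, for the share of ATP6V0A1 among a genes, a difference of -0.402 to 1.07 percentage points. With a replicate block 1 TLDc gene and 2727 genes in all passed. The deviations of same-numbered samples correlated by 0.010 to 0.033 and those of differently numbered samples by -0.027 to -0.0008. These values are small, and the numbers were not taken to pair the samples. Whether they do was not tested.

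The results rest on 1 siRNA, 1 cell line and 3 samples per group. Counting rules limit ATP6V0C, RNASEK, ATP6V0E2 and ATP6V1B1, the last of which shared 1676 of its 2688 exon bases with coding genes on the same strand. Annotated genes without a row among the counts also overlapped exons of ATP6V0A1 (19 bases), ATP6V0A2 (292 bases), ATP6V0B (302 bases) and ATP6V0E2 (466 bases). ATP6V0A4 and ATP6V0D2 were too low to be tested. Levels are of RNA, and no protein was measured in these files.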

Other observations

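Low counts in overlapping genes were not peculiar to ATP6V0C. Of 503 coding genes that shared at least 50% of their exon bases with another coding gene on the same strand, 457 (90.9%) had a mean under 1 FPKM, against 6639 of 16908 (39.3%) coding genes with no shared base. The median level was 0 FPKM in the former and 5.69 FPKM in the latter. The annotation behind the counts is not given in the sources used here, and how the counting treated such reads was not tested.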
